A study of Mus musculus with 8 samples.

Results

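The 10 genes described here, Dazl, Ddx4, Sycp1, Sycp3, Mael, Tex101, Tdrd1, Asz1, Hormad1 and Slc25a31, are mouse germline genes that are kept silent in somatic cells by promoter methylation. They were taken as a fixed list, and every region of the authors' list that lay in one of the genes or within 5000 bp of it was collected, which gave 52 of 220894 regions. Per the labels, bisulfite sequencing after capture with a mouse methylation kit was run on 8 cell lines. They were 4 IDH mutant brain tumour lines from N::TVA mice with floxed alleles that included Cdkn2a and Atrx, 2 IDH wild-type brain tumour lines, described as RAS gliomas, from N::TVA mice with floxed Cdkn2a, and 2 immortalized IDH wild-type astrocyte lines, PDGFA and IWT-PDGFA, from mice of the same genotype as the mutant lines. IWT-PDGFA also expressed exogenous wild-type IDH1. All lines shared the N::TVA transgene, floxed Cdkn2a and a mixed background of C57Bl/6, 129 and FVB/n, and all were grown in culture, so the tissue itself was not sampled. TVA is the receptor for an avian virus used to carry genes into chosen cells.

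The file holds 1 list of regions for all lines together, and each region has 1 score, which is the authors' own value. The score is not a methylation level, none of the labels or headers says what it counts, and no value belongs to a single line. Whether the 10 promoters were methylated or silent in these lines could therefore not be checked, IDH mutant and wild-type lines were not compared, no value below has a replicate error, and depth per line is unknown. What could be measured is which germline promoters the list reaches and how their regions score against other regions of the list.

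Germline genes of this kind carry CpG-rich promoters that are methylated around implantation and stay methylated in body tissues, whereas the primordial germ cells erase the mark. Many depend on this methylation for silence, so that loss of the DNA methyltransferases switches them on in cells that are not germ cells. Their products work in the germline: Dazl and Ddx4 regulate germ cell RNA, Mael, Tdrd1 and Asz1 belong to the pathway of piRNAs (small RNAs that silence transposons), Sycp1, Sycp3 and Hormad1 build meiotic chromosome structure, and Tex101 and Slc25a31 act in testis and sperm.

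The promoter sequences of 4 genes are printed because they mark the ends of what the list covered. The 250 bases before the start, from RefSeq on GRCm38.p6 (the assembly named mm10), are given 5′ to 3′ on the gene's strand with each CpG, the site at which DNA is methylated, in capitals. For Dazl (chr17:50293621-50293870, minus strand) 2 of 20 CpGs lay in a region, for Ddx4 (chr13:112652311-112652560, minus strand) 0 of 31 and for Asz1 (chr6:18109062-18109311, minus strand) 0 of 15. For Slc25a31 (chr3:40708621-40708870, plus strand) all 18 of 18 did.
Dazl: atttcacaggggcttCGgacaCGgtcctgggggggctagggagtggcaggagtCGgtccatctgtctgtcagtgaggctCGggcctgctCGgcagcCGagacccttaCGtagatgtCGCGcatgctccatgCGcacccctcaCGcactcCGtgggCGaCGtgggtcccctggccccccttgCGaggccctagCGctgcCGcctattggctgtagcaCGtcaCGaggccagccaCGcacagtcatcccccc
Ddx4: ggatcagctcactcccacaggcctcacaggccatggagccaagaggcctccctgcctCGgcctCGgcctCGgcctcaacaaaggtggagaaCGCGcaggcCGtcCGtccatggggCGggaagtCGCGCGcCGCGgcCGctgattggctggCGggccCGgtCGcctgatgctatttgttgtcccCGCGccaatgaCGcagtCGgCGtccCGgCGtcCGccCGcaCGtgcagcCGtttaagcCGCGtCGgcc
Asz1: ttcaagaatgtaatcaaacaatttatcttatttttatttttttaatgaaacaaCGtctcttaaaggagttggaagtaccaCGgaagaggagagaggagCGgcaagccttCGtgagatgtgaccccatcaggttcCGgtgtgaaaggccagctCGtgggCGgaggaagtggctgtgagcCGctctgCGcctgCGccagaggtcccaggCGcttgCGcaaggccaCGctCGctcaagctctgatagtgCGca
Slc25a31: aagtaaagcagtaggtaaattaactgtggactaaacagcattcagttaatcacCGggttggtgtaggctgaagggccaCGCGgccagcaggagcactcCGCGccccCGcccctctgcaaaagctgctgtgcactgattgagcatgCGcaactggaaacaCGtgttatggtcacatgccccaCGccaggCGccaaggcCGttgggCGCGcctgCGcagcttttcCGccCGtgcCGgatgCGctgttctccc

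Of the 10 promoters, 9 were reached by the list and that of Asz1 was not. A promoter counted as reached if any base of a region fell within 1000 bp of the annotated start, on either side, and by this rule 73.1% of 17492 protein-coding genes were reached. Among the 5813 genes whose CpG ratio lay in the range of the 10 germline genes the share was 98.5%, so 9 of 10 is not above what promoters of like CpG content show. The germline count was also 9 with windows of 500 bp (68.9% of all protein-coding genes) or 2000 bp (76.7%), with at least 100 bp shared (72.6%) and with regions scoring 200 or more (70.1%). The start base itself lay inside a region in 7 of the 10 genes, against 37.5% of all protein-coding genes and 47.2% of those with a like CpG ratio. The 3 genes whose start base lay outside were Ddx4, whose nearest region began 300 bp downstream, Mael, whose region ended 37 bp upstream, and Asz1, whose nearest region lay 5961 bp downstream. The kit's target list was not used here, so capture and sequencing cannot be told apart as the reason for a gap.

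**Figure D1:**
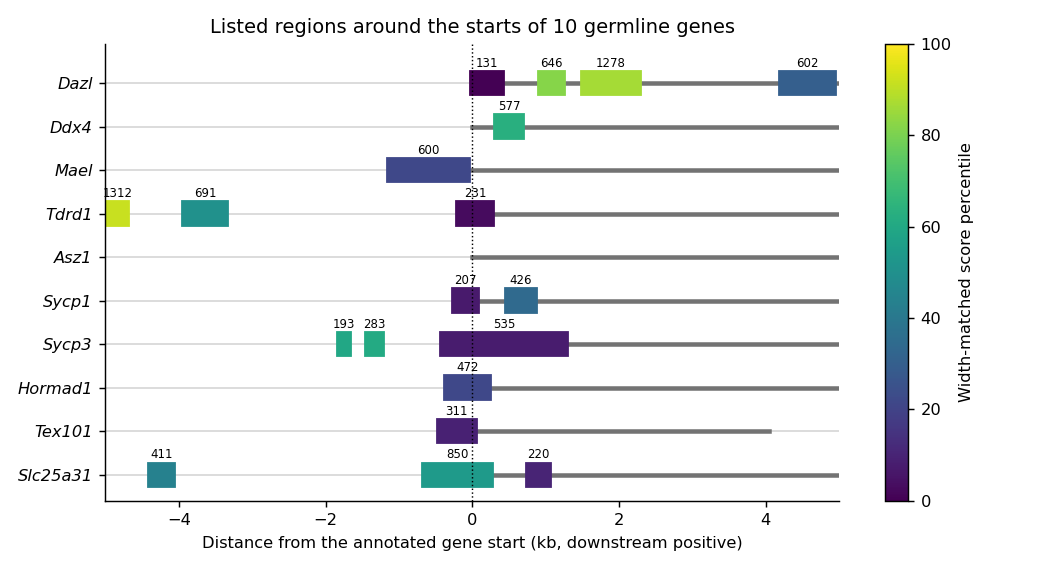
Regions within 5 kb of the annotated start of each of the 10 genes, by distance from the start in kb, with the authors' score above each block, its width-matched percentile as the colour, and the gene as the thick grey line. The start base is inside a region in 7 genes, and Asz1 has no region in this stretch.

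In the 300 bases around the start (250 before and 50 after), the 10 promoters held 228 CpGs, of which 144 (63.2%) lay inside a region, against 44.7% of the 267555 CpGs of all protein-coding promoters. For 8 of the 10 genes either all or none of the CpGs were covered, which was also common among all promoters (27.7% with all and 38.7% with none). All CpGs of the stretch lay in a region for 6 genes, namely Sycp1, Sycp3, Tex101, Tdrd1, Hormad1 and Slc25a31, against 27.7% of all promoters. None did for Ddx4 and Asz1, against 38.7% of all promoters, while Dazl had 10 of 28 and Mael 13 of 24. These shares were not measured among promoters of like CpG ratio, which were reached more often than all promoters (98.5% against 73.1%).

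**Figure D2:**
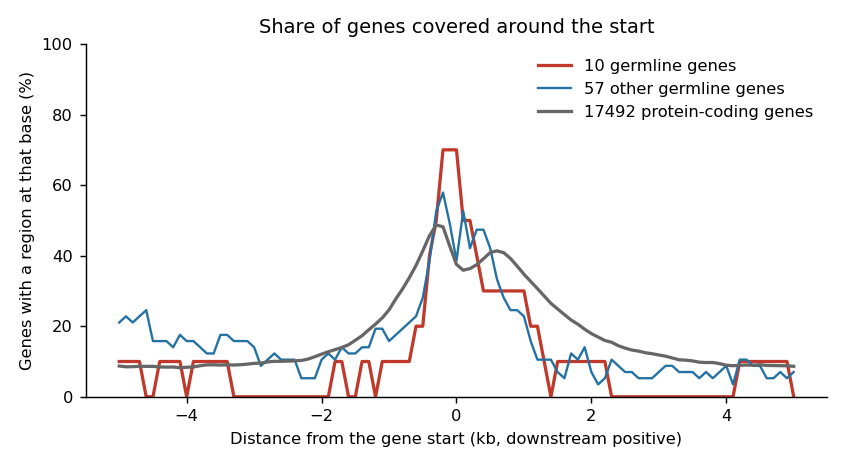
Share of genes with a region at each base from 5 kb upstream to 5 kb downstream of the start, for the 10 germline genes, 57 other germline genes and 17492 protein-coding genes. The 10 genes reach 70% at the start base and at 200 bp upstream, where all genes stand at 37.5% and 48.2%. They are lower than all genes at 600 bp downstream, with 30% against 41.4%, and at 700 bp upstream, with 10% against 33.7%. Toward the ends of the plot the lines lie close, as at 4500 bp downstream, with 10% (1 gene) against 9.1%.

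The regions at most of the germline starts scored low for their width. Because wider regions score higher in this list, each score was also placed among the regions that differed from it by at most 50 bp in width, and the width-matched percentile is the percent of those that score lower. The region nearest the start had a median percentile of 9.36 over the 9 germline genes, against 35.5 over the 12788 protein-coding genes reached (quartiles 14.3 and 61.1). It was below 35.5 in 7 of the 9, the exceptions being Ddx4 and Slc25a31. It was below percentile 10 in 5 of the 9, against 18.8% of those protein-coding genes and 19.9% of the 5727 reached with a like CpG ratio; the limit of 10 was chosen after the values were seen. The raw scores had a median of 472 over the 9 germline genes and 542.5 over all protein-coding genes reached. The 7 regions that held a germline start were narrower, with a median width of 540 bp against 930 bp for all protein-coding starts held in a region, and had a median score of 311 against 641. No test was run on these differences, since the list has 1 value per region and the genes were chosen.

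**Figure D3:**
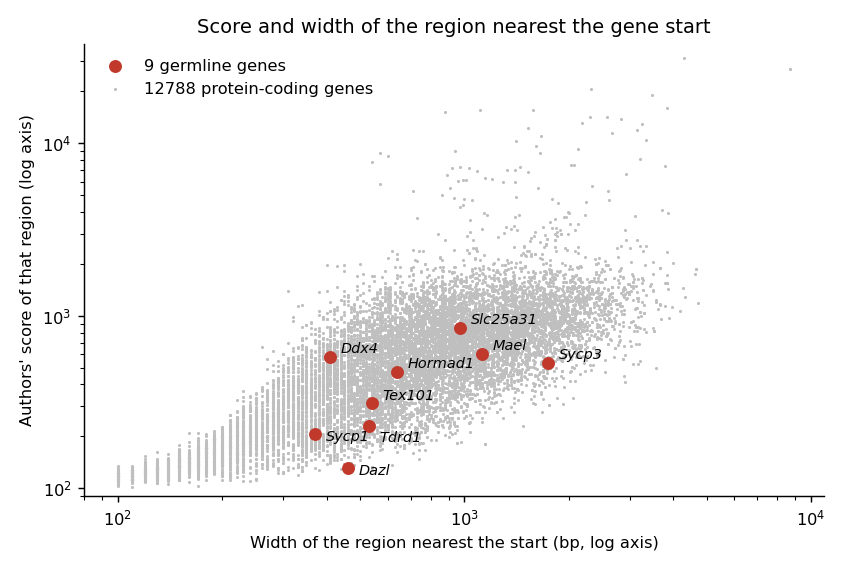
Authors' score (log axis) against width in bp (log axis) of the region nearest the gene start, for the 9 germline genes reached (red) and 12788 protein-coding genes reached (grey). Dazl lies at the lower edge of the grey points for its width, and Ddx4 and Slc25a31 lie above the middle for theirs.

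Elsewhere in the same loci the scores were higher for their width. Away from the promoter windows, 40 regions of the 10 genes had a median score of 632.5 and a median width-matched percentile of 62.3. These 40 include regions at the starts of neighbouring genes, which are named below. The 12 regions within the promoter windows had medians of 449 and 15.8. In 8 of the 9 genes, the region nearest the start had a lower width-matched percentile than the median of the gene's other regions, against 62.8% of 12397 protein-coding genes; the exception was Slc25a31. Over all 52 regions the median score was 556, against 462 for the whole list, and the median width was 515 bp against 460 bp.

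**Figure D4:**
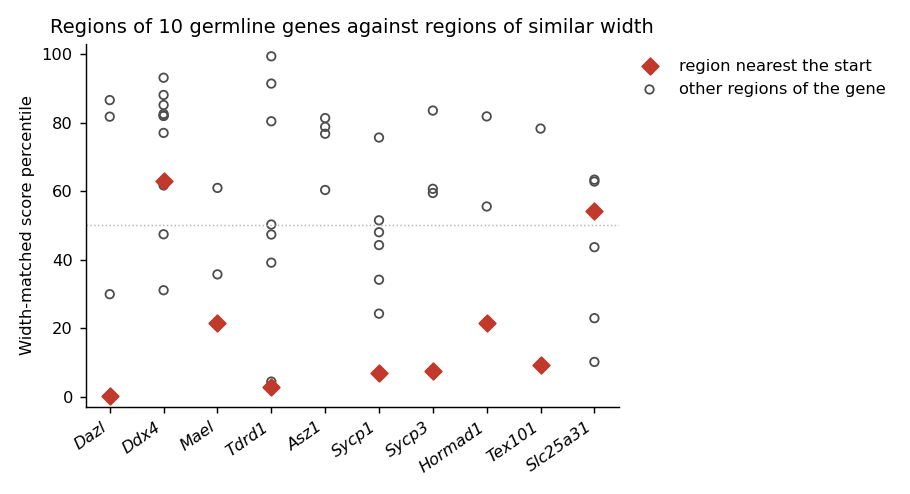
Width-matched score percentile of each of the 52 regions, by gene, with the region nearest the start as a red diamond (9 genes) and the gene's other regions as open circles. The diamond is below percentile 10 in Dazl, Tdrd1, Sycp1, Sycp3 and Tex101, and Asz1 has no diamond.

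Of the 7 genes whose start base lay in a region, Dazl had the lowest score there, with a high one within the next kilobases. Dazl encodes an RNA-binding protein that controls translation in germ cells and lies on chromosome 17 from 50279393 to 50293620 on the minus strand. The region over its start (50293191 to 50293650, 460 bp) scored 131, and only 9 of 29302 regions of similar width scored lower. The next regions downstream scored 646 (370 bp), 1278 (820 bp) and 602 (780 bp), at width-matched percentiles of 81.8, 86.6 and 29.9. The Dazl value of 646 therefore belongs to a region that begins 890 bp inside the gene, not to the start. The start region reached 30 bp upstream, so most of the printed Dazl sequence lay outside it.

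Ddx4, the mouse vasa homologue and an RNA helicase of germ cells, had the most regions of the 10 genes. Its gene spans 112598333 to 112652633 on chromosome 13, its start as used here is 112652310, and it had 11 regions. The region nearest the start (112651601 to 112652010) scored 577, at a width-matched percentile of 62.9, and began after the CpG-dense stretch printed above. The highest score, 1491, came from a region of 1460 bp that lay 5760 to 7219 bp inside the gene. Over its 11 regions the median width-matched percentile was 82.0, higher than in 95.9% of protein-coding genes with a region. Beyond the far end, 2 regions with scores of 852 and 760 overlapped the pseudogene Gm3226.

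Of the piRNA genes, Tdrd1 had a low region at its start and a very high one in its body. Tdrd1 encodes a Tudor domain scaffold that binds PIWI proteins and lies on chromosome 19 from 56826171 to 56870012. Its start region (56825981 to 56826510) scored 231, at a width-matched percentile of 2.93. A region 21152 bp inside the gene (56847361 to 56848590, 1230 bp) scored 6408, at percentile 99.4 for its width; whether this sequence occurs elsewhere in the genome was not tested. The remaining Tdrd1 regions included 2 near the starts of neighbours. A region with a score of 691 began 52 bp upstream of the start of Ccdc186, and one with a score of 336, at percentile 4.37, began 75 bp after the start of Vwa2. A region of 640 bp with a score of 1312 lay inside Ccdc186, and one of 950 bp past the far end of Tdrd1 scored 1187. Inside Tdrd1 itself, the other 2 regions scored 187 and 538.

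Mael and Asz1, the other piRNA genes, had fewer regions. Mael, needed to repress transposons in the male germline (chromosome 1, 166201385 to 166238744, minus strand), had 3, and the one at the promoter (166238781 to 166239900, 1120 bp) scored 600, at percentile 21.6. This region lay wholly upstream and ended 37 bp before the start. The other 2 scored 562 and 497 and lay deep into the gene. Asz1, a scaffold of the germ cell structure in which piRNAs are made (chromosome 6, 18050964 to 18109061, minus strand), had 4 regions, all inside the gene. They scored 152, 1040, 870 and 315 from the start side to the far end. The region nearest its start was also the narrowest, at 150 bp, and the other 3 lay between percentiles 76.8 and 81.4 for their width.

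The meiotic genes all had their start base inside a region. Sycp1, the protein that spans the gap between paired chromosomes in the synaptonemal complex (chromosome 3, 102818499 to 102936100, minus strand), scored 207 at its start (102936011 to 102936380, percentile 6.81) and 426 in a second region 440 bp into the gene. Sycp3 is a component of the axes of meiotic chromosomes (chromosome 10, 88459587 to 88473236). Its start region was the widest of the 7 that held a germline start, 1740 bp from 88459151 to 88460890, with a score of 535. For that width the score was low, at percentile 7.44, although it was above that of 5 of the other germline start regions. Hormad1, an axis protein that acts on meiotic recombination (chromosome 3, 95559677 to 95587863), scored 472 at its start (95559291 to 95559930, percentile 21.5).

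The region with the highest score near Hormad1 lay over the start of another gene. It ran from 95588051 to 95589610, scored 997, lay past the far end of Hormad1 and held the annotated start of Golph3l at 95588934. At percentile 55.5 for its width it was not low, in contrast to the Hormad1 start. This region also overlapped the non-coding gene Gm40097. So did the remaining Hormad1 region, at the far end of the gene (95587511 to 95587890), which scored 673 at percentile 81.8. Sycp3 overlaps the gene Chpt1 on the other strand, and a region past its far end (score 746) lay inside Chpt1. In Sycp1, the region with a score of 421 overlapped the pseudogene Gm33866.

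Both genes of testis and sperm had their start base inside a region, low in score for Tex101 and high for Slc25a31. Tex101, a cell surface protein of male germ cells that sperm need for fertility (chromosome 7, 24668012 to 24672050, minus strand), had 2 regions, one over the start with a score of 311 (24671991 to 24672530, percentile 9.36) and one beyond the far end with 1217, which overlapped the non-coding gene Gm4598. Slc25a31 is the ADP/ATP carrier of testis mitochondria (chromosome 3, 40708871 to 40726094). Its start region had the highest score of the 7 that held a germline start, 850 over 970 bp (40708181 to 40709150, percentile 54.1). The order was inverted next to it, since a region 730 bp into the gene scored 220, at percentile 10.1. Its other 4 regions were narrow, from 140 to 370 bp, and scored 125 to 411. The one with a score of 411, upstream of the start, overlapped the neighbouring gene Intu.

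In sequence the 10 promoters were CpG-rich without standing at the top of the range. The CpG ratio, the number of CpGs over that expected from the C and G content, ran from 0.67 in Sycp3 to 0.98 in Ddx4 with a median of 0.78, against a median of 0.58 over all protein-coding promoters (quartiles 0.22 and 0.83). All 10 were above that median, at percentiles from 57.0 to 90.2. GC content had a median of 60.3% in the germline promoters and 56.3% in all, and Asz1, with 54.3%, was the only one of the 10 below 56.3%. When all protein-coding genes were split by CpG ratio into 3 equal classes, the region nearest a reached start had a median width-matched percentile of 40.0 in the lowest class, 32.6 in the middle one and 37.1 in the highest, all above the 9.36 of the germline genes.

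**Figure D5:**
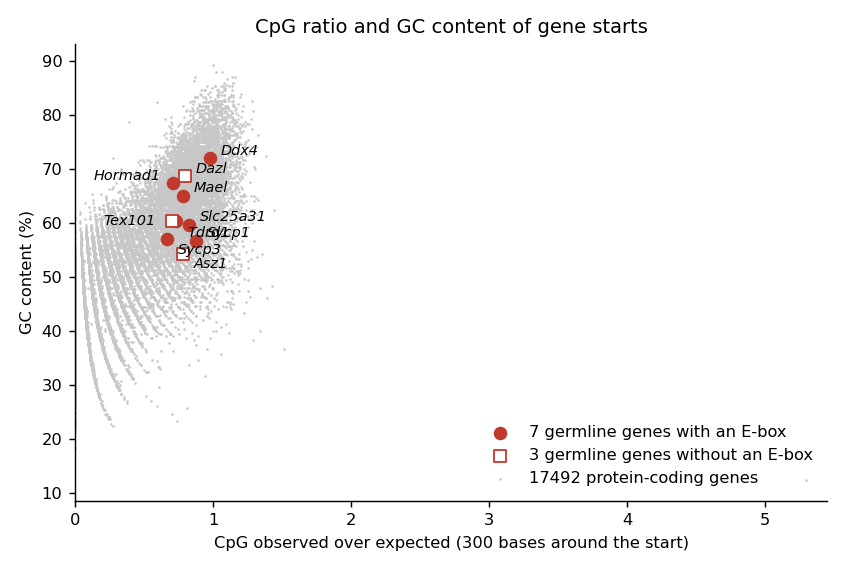
GC content in percent against the CpG ratio of the 300 bases around the start, for the 10 germline genes (red) and 17492 protein-coding genes (grey); filled circles are germline genes whose sequence holds the E-box. All 10 lie between ratios of 0.67 and 0.98, and 7 hold the E-box.

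The E-box CACGTG was found in 7 of the 10 promoter sequences, against 7.91% of all protein-coding promoters and 11.1% of those with a like CpG ratio. CACGTG is bound by basic helix-loop-helix proteins such as MAX and MGA, which in mouse embryonic stem cells are part of a Polycomb complex, with a member of the E2F family, that represses germline genes. There were 9 sites, since Sycp3 and Hormad1 had 2 each, and the motif reads the same on both strands. They are shown with 9 bases on either side and the motif in capitals, because the motif holds a CpG at its centre and can itself be methylated.
Ddx4 (chr13:112652325-112652348, minus strand): gtccgcccgCACGTGcagccgttt
Sycp1 (chr3:102936180-102936203, minus strand): agaacccggCACGTGggaagggaa
Sycp3 (chr10:88459514-88459537, plus strand): gttggctccCACGTGagaacgggc
Sycp3 (chr10:88459535-88459558, plus strand): ggcatggagCACGTGctaggaggc
Mael (chr1:166238953-166238976, minus strand): caggcctacCACGTGacaatcccc
Tdrd1 (chr19:56826189-56826212, plus strand): ggctgcgcgCACGTGggagtaaac
Hormad1 (chr3:95559611-95559634, plus strand): agggtgcgcCACGTGccagtgaca
Hormad1 (chr3:95559648-95559671, plus strand): cgcactgcgCACGTGctgaccgga
Slc25a31 (chr3:40708769-40708792, plus strand): aactggaaaCACGTGttatggtca
The sites lay from 11 bp (Tdrd1) to 223 bp (Mael) before the start. All but that of Ddx4 were inside a region, so 8 of 9 were within covered sequence. Apart from the Mael site, these 8 lay in promoters whose CpGs were all covered. The share of such sites covered over all promoters was not measured. Dazl, Tex101 and Asz1 had no match in this window.

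The E2F-type element TTCCCGC, searched with its reverse complement GCGGGAA and free of overlap with CACGTG, was found in 4 of the 10 (Ddx4, Sycp3, Hormad1 and Slc25a31), against 6.01% of all promoters and 9.98% of those with a like CpG ratio. Each of these 4 also held CACGTG. The longer E-box TCACGTGA, which contains CACGTG, and the cAMP response element TGACGTCA were in 0 of the 10, against 1.25% and 2.33% of all promoters and 2.03% and 3.75% of those with a like CpG ratio. CGCG, which marks neighbouring CpGs, was in 7 of the 10, above the 49.5% of all promoters and below the 88.2% of those with a like CpG ratio. These matches are descriptions of sequence and were not tested.

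The same measures were taken over other germline genes. Of 66 further genes, 57 had a promoter entry, and 48 of these (84.2%) were reached, against 73.1% of all protein-coding genes. By group, 14 of 15 were reached in the piRNA pathway, 22 of 23 in meiosis and 12 of 19 among genes of germ cell RNA and transcription. The start base lay in a region in 22 of the 57 (38.6%), near the 37.5% of all protein-coding genes. The region nearest the start had a median width-matched percentile of 24.3, between the 9.36 of the 9 genes above and the 35.5 of all protein-coding genes. The E-box was in 15 of 57 (26.3%), against 7.91% of all protein-coding promoters. The 4 highest scores within 1000 bp of a start were 1775 at Msh4, 1487 at Piwil4, 1238 at Stra8 and 1213 at Msh5. Msh4 and Msh5 act together in meiotic crossing over, Piwil4 is a PIWI protein and Stra8 is a switch for entry into meiosis. At Msh4 and Piwil4 the highest score was that of the region over the start. The region nearest the start scored only 351 at Msh5, at width-matched percentile 12.4, and 958 at Stra8, at percentile 45.6. Genes not reached included Figla, Mei1, Nanos2, Nanos3, Nobox and Pabpc1l.

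The 10 loci had 2 to 11 regions each, with a median of 4 against 6 for all protein-coding genes. Regions covered 2.26% (Asz1) to 11.7% (Ddx4) of the gene with its flanks, with a median of 7.51% against 8.83% for all protein-coding genes. The density had a median of 1.46 regions per 10 kb against 1.56, and was below that value in 6 of the 10.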

How the data were processed

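Bisulfite sequencing of DNA from 8 mouse cell lines followed hybrid capture with an Agilent SureSelect kit for mouse methylation, per the labels' protocols. Novoalign 3.7.1, Picard and mm10 are named in the submitters' processing notes; how regions were called was not given in the sources used here. Each region carries a score that the authors deposited, a whole number of at least 100 pooled over all lines. It was used only to describe and rank regions. Coordinates count from 1.

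Gene spans, starts and promoter sequences come from RefSeq tables on GRCm38.p6, which give no exons. Of 21887 protein-coding genes, 17492 (79.9%) had a promoter entry, all 10 germline genes among them; the outermost start was used (3 starts are listed for Tdrd1 and 2 for Hormad1). Width matching used regions within 50 bp. Overlap, percentile and motif code was checked on simulated data. Python 3.11.15, pandas 2.3.3 and numpy 2.4.6 were used. The 10 genes and the lists were chosen with earlier results of these data known. Named genes were all 10, protein-coding genes that start in one of the 10 or within 5000 bp of it, and of the other germline list the 4 with the highest promoter scores and up to 6 without a region in order of symbol. Chpt1, Intu and genes with Gm symbols fall outside this rule and were named after their values were seen, because a region overlapped them. No test was run, because no value per line was available. Some items are not reported here.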

Additional observations from a re-analysis of the deposited data

How the results depend on the processing

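The count of 9 germline promoters reached was 9 with windows of 500 and 2000 bp, with at least 100 bp shared and with scores of at least 200, and 7 when the start base had to lie in a region. The 52 regions became 43 with flanks of 2000 bp, 38 with none, 51 when at least 50% of a region had to lie inside and 46 with scores of at least 200. Their median score of 556 ran from 538 to 601, and their median width-matched percentile of 59.9 was 56.2 with regions within 100 bp of the width. The median of the highest score in the promoter window, 535, was 472 with windows of 500 bp. The median percentile of the region nearest the start, 9.36, was 10.1 within 100 bp of the width, and that of regions holding a start was 7.44 and 7.25; both alternatives were chosen after seeing the data. The 48 other germline promoters became 46 to 50. Leaving out a line could not be tried, since the list is pooled. No paired analysis was possible because the list holds no value per line. Depth per line is unknown, so it cannot be said which lines the regions rest on.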
